A study of Mus musculus with 6 samples.

Results

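The 9 enzymes described here make serine and carry its single-carbon unit through folate: Shmt2, Mthfd2, Mthfd1l and Aldh1l2 in mitochondria, Shmt1 and Mthfd1 in the cytosol, and Phgdh, Psat1 and Psph in the cytosolic synthesis of serine. They were chosen by name, with earlier results of these data known, from 19977 Entrez genes in the deposited table, and all 9 were found there. They were measured in CD4+ T cells from mice of the strain C57BL/6 and genotype wild type, in 3 libraries from young animals (6 to 8 weeks) and 3 from old animals (11 months). The titles of the young libraries give 1 month instead, and which age holds was not settled. Spleen and lymph nodes were the source of all cells, which were sorted by flow cytometry and stimulated in culture for 6 hours with antibodies to CD3 and CD28, so no unstimulated cells were compared. The labels do not say that each library came from its own animal, and p-values then measure only the spread between these libraries.

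Phgdh, Psat1 and Psph convert a glycolytic intermediate to serine in that order. The serine hydroxymethyltransferases Shmt1 and Shmt2 split serine into glycine and a folate-bound carbon unit. In mitochondria Mthfd2 oxidises that unit and Mthfd1l then yields formate from it. The formate leaves for the cytosol, and Mthfd1 there loads it back onto folate for purine and thymidylate synthesis. Aldh1l2 releases the unit in mitochondria as carbon dioxide. In T cells this pathway is known to be induced by antigen-receptor stimulation, and Mthfd2, Psat1, Phgdh and Aldh1l2 are known targets of Atf4, the transcription factor of the amino acid response.

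Expected counts per library totalled 16932551 to 18708205. Cd4, the antigen-receptor chains Cd3e, Cd3d and Cd3g, and 3 further CD4 T-cell markers summed to between 2875 and 3708 CPM (counts-per-million, with library totals scaled by the TMM factors of edgeR) in all 6 libraries, while 6 B-cell markers summed to 35.9 CPM in young replicate 1 and to between 10.7 and 18.4 CPM in the other 5. Young replicate 1 stood apart, with correlations of log2 CPM across genes of 0.93 and 0.91 with the other young libraries against 0.98 between those. Its 8 markers of early activation (Cd69, Il2ra, Egr1, Egr2, Nr4a1, Irf4, Tnfrsf9 and Myc) summed to 2883 CPM, against 5033 and 5876 in the other young and 5938 to 8338 in the old libraries. Its 7 naive or quiescent markers summed to 7533 CPM, against 2894 and 3342 in the other young and 1944 to 2476 in the old libraries. The 7 effector or memory markers summed to 208 to 278 CPM in young and 545 to 686 in old libraries. Of these 7, edgeR called 2 higher in old libraries with all 6 libraries, beside 0.742% of all genes. They were Cd44, at 1.40 ± 0.21, and Cxcr6, at 3.18 ± 0.35 (log2, SE, adjusted p = 0.0368 and 0.0207). Every old library was above every young one for Cd44, Cxcr6, Cxcr3, Id2 and Itgb1, a pattern of 9.88% of genes. Ccl5 and S100a4 overlapped. The sums of 3 lists of other cell types differed by age as well. Of their tested genes, 0 reached an edgeR adjusted p under 0.05 with all 6 libraries, beside 0.875% of all genes. DESeq2 called Camp and Eomes lower in old libraries (adjusted p = 0.0454 and 0.00193), where it called 127 of 10509 genes lower. Without young replicate 1, edgeR called Eomes lower, at -1.61 ± 0.13 (log2, SE, adjusted p = 0.00191), beside 2.98% of all genes. The 6 neutrophil markers summed to 14.5 to 35.9 CPM in young and 1.78 to 13.7 CPM in old libraries, and Cd8a with Cd8b1, the chains of CD8, to 16.6 to 27.5 CPM in young and 11.3 to 14.6 CPM in old libraries. The 4 natural killer markers summed to 47.9 to 99.8 CPM in young and 30.3 to 37.8 CPM in old libraries, and nearly all of that was Eomes, which T cells also express, with Ncr1, Klrb1c and Klra8 each below 1 CPM in every library. For the sums of these 3 lists every old library was below every young one. Gene by gene, only Cd8b1, S100a8, Camp and Eomes had that pattern. Klrb1c was higher in every old library, at 0.420 to 0.667 CPM against 0 to 0.376 CPM in young. The sums of macrophage, monocyte and dendritic cell markers and of red blood cell markers overlapped between the ages. Of the genes in them, only Siglech and Hbb-bs were lower in every old library than in every young one, at low levels. Siglech stood at 0.902 to 1.22 CPM in young and 0.328 to 0.702 CPM in old libraries. Hbb-bs stood at 0.579 to 1.71 CPM in young and 0 to 0.437 CPM in old libraries. The part of all these markers in the results below was not tested. In sorted bulk cells, fewer cells of a kind and less RNA per cell cannot be told apart.

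Old libraries had more RNA of Aldh1l2 and Mthfd2 than young ones, in every old library against every young one, by 2.87-fold and 1.97-fold. Aldh1l2 had a low level and passed the filter on low values through the old group alone. Neither difference passed edgeR's test with all 6 libraries, and both passed it without young replicate 1. The other mitochondrial enzymes were Shmt2, at 1.45-fold with no overlap, and Mthfd1l, at 1.29-fold with groups that overlapped. The cytosolic enzymes Shmt1 and Mthfd1 overlapped between the groups, with old at 1.14 and 1.03 times the young level, and at 0.939 and 0.813 times without young replicate 1. The serine synthesis enzymes stood at 1.29-fold for Phgdh, 1.57-fold for Psat1 and 1.53-fold for Psph.

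None of the differences was past the threshold in edgeR: 0 of the 9 enzymes had a Benjamini-Hochberg adjusted p under 0.05 in its quasi-likelihood fit, where 0.875% of 10509 genes tested did. Of the 9, 2 (Mthfd2 and Aldh1l2) had an unadjusted p under 0.05, as did 10.6% of all genes. DESeq2 called those 2 higher in old libraries, as it did 3.56% of all genes, and limma on log2(FPKM + 1) called 0, beside 0.942% of all genes, with 4 at an unadjusted p under 0.05, beside 10.1% of all genes. Without young replicate 1, edgeR called Mthfd2 and Aldh1l2, both higher in old libraries, with 5.86% of all genes called higher. Leaving out any of the other 5 libraries gave 0 calls among the 9, in fits that called few genes at all: 0% without young replicate 2, 0.0666% without young replicate 3, and 0.0571%, 0% and 0.0856% without old replicates 1, 2 and 3. The groups did not overlap for 5 of the 9 (Shmt2, Mthfd2, Aldh1l2, Psat1 and Psph), always with old above young, and 9.88% of all genes tested had that pattern. For 0 of the 9 were all old libraries below all young ones, a pattern of 6.55% of genes. With young replicate 1 set aside, the same 5 enzymes were above (24.3% of genes) and 1, Mthfd1, was below (23.3% of genes). All 9 log2 differences were positive with all libraries, where 44.9% of genes were, and 7 of 9 without young replicate 1, where 51% were. The median log2 difference of the 9 was 0.54 with all libraries and 0.32 without young replicate 1, beside -0.03 and 0.01 over all genes tested. Aldh1l2 came to be tested through the old group alone, so its place in these counts is a description and not support for a difference.

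**Figure D1:**
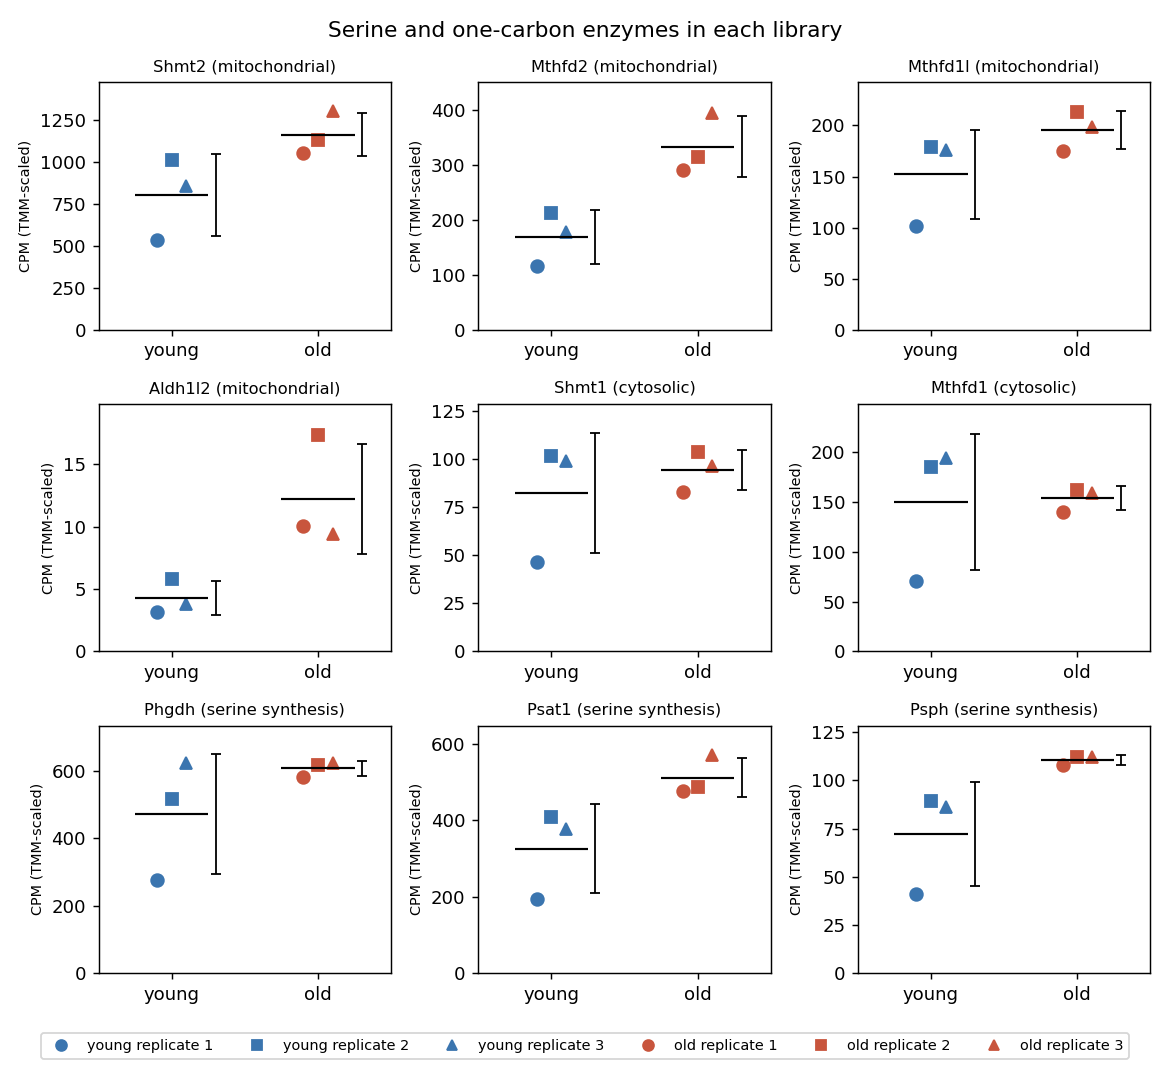
CPM of each enzyme (vertical axis, starting at 0, TMM-scaled) in 3 young and 3 old libraries. Points are libraries, horizontal lines are group means and the bars beside them are SD; young replicate 1 (blue circle) is the lowest library in all 9 panels.

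Young replicate 1 was below both other young libraries for 9 of 9 enzymes, which held for 41.2% of all genes tested. Its level was between 37.5% (Mthfd1) and 66.2% (Aldh1l2) of the mean of young replicates 2 and 3, with a median of 49.3% over the 9 enzymes, while the median over all genes tested was 103%. The young means and SDs below include this library, and the log2 difference of each of the 9 enzymes is given with and without it.

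On the scale that corrects for transcript length (FPKM, fragments per kilobase of transcript, scaled to the library total, as the authors deposited it), Shmt2 was the most abundant of the 9, with a mean of 422 FPKM over the 6 libraries, above 98.6% of the genes tested. Phgdh followed at 286, Psat1 at 191, Mthfd2 at 120 and Psph at 66.9 FPKM. Mthfd1l, Mthfd1 and Shmt1 had means of 46.0, 45.0 and 42.7 FPKM, which differ by less than the spread between libraries. Aldh1l2 was far lower, at 1.43 FPKM, above only 4.53% of the genes tested. Summed over the class, mitochondrial enzymes stood at 321 to 585 FPKM in young and 651 to 790 FPKM in old libraries. The cytosolic pair summed to 44.7, 104 and 102 FPKM in young replicates 1, 2 and 3, a range that holds the 83.4 to 99.8 FPKM of the old libraries.

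Shmt2 (gene 108037, chr10:127517123-127522444 in GRCm38, where its span overlaps Ndufa4l2) stood at 532, 1010 and 857 CPM in young replicates 1 to 3 and at 1055, 1133 and 1301 CPM in old replicates 1 to 3. The lowest old library was just above the highest young one. Its log2 difference, old minus young, was 0.54 ± 0.26 (SE, n = 3 per group; edgeR adjusted p = 0.549), and 0.32 ± 0.15 without young replicate 1 (adjusted p = 0.214). Of its 2 listed transcripts, the major one held between 78.4% and 85.4% of the gene's counts in each library, so the balance of the isoforms showed no separation by age.

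Mthfd2 (gene 17768, chr6:83305704-83326011), the dehydrogenase and cyclohydrolase of the mitochondrial arm, stood at 116, 213 and 178 CPM in the young and at 291, 314 and 395 CPM in the old libraries. All old libraries lay well above all young ones, and the means were 333 ± 54.8 against 169 ± 49.4 CPM (SD, n = 3 each). The log2 difference was 0.98 ± 0.25 (SE), with an adjusted p = 0.168 in edgeR and 0.0177 in DESeq2. It was 0.77 ± 0.16 without young replicate 1, with an adjusted p = 0.0275 in edgeR. Over 15 alternative settings the difference ranged from 0.77 to 1.18 and the adjusted p from 0.0177 to 0.562.

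Aldh1l2 (gene 216188, chr10:83487447-83534146), the mitochondrial formyltetrahydrofolate dehydrogenase, stood at 3.18, 5.80 and 3.81 CPM in the young and at 9.40, 10.04 and 17.3 CPM in old replicates 3, 1 and 2. All old libraries were above all young ones. The values rest on 55 to 108 expected counts per young and 172 to 321 per old library, the fewest of the 9 enzymes. The log2 difference was 1.52 ± 0.35 (SE, n = 3 per group), with an adjusted p = 0.124 in edgeR and 0.00397 in DESeq2, and 1.35 ± 0.34 without young replicate 1, with an adjusted p = 0.0499 in edgeR. Its mean was 0.740 FPKM in young and 2.11 FPKM in old libraries, so it passed the filter of a mean of 1 FPKM through the old group alone. With no filter the adjusted p was 0.0740 in edgeR. The deposited counts split its reads between a predicted and a known transcript, and the share of the predicted one ran from 40.0% to 86.9% with no order by age.

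Mthfd1l (gene 270685, chr10:3972892-4167081), the mitochondrial formyltetrahydrofolate synthetase that yields formate, stood at 102, 179 and 176 CPM in the young and at 175, 213 and 199 CPM in the old libraries. The lowest old library was below both young replicates 2 and 3. Its difference was 0.36 ± 0.24 on the log2 scale (SE, adjusted p = 0.704 in edgeR) and was 0.14 ± 0.12 without young replicate 1 (adjusted p = 0.471).

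Shmt1 (gene 20425, chr11:60788897-60811265) stood at 46.3, 102 and 98.9 CPM in the young and at 82.8, 104 and 96.1 CPM in the old libraries. Young replicates 2 and 3 lay within the old range, and old replicates 1 and 3 were below both of them. Its log2 difference was 0.19 ± 0.30 (SE, adjusted p = 0.903 in edgeR) and turned to -0.09 ± 0.13 without young replicate 1 (adjusted p = 0.693).

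Mthfd1 (gene 108156, chr12:76254406-76319820), the cytosolic C1-tetrahydrofolate synthase, stood at 71.2, 185 and 194 CPM in the young and at 141, 162 and 159 CPM in the old libraries. Young replicate 1 was the lowest and young replicate 3 the highest of all 6, with the old libraries between. The log2 difference was 0.04 ± 0.35 (SE, adjusted p = 0.986 in edgeR). Without young replicate 1 all 3 old libraries were below both young ones, as given above, and the difference was -0.30 ± 0.11 (adjusted p = 0.135).

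**Figure D2:**
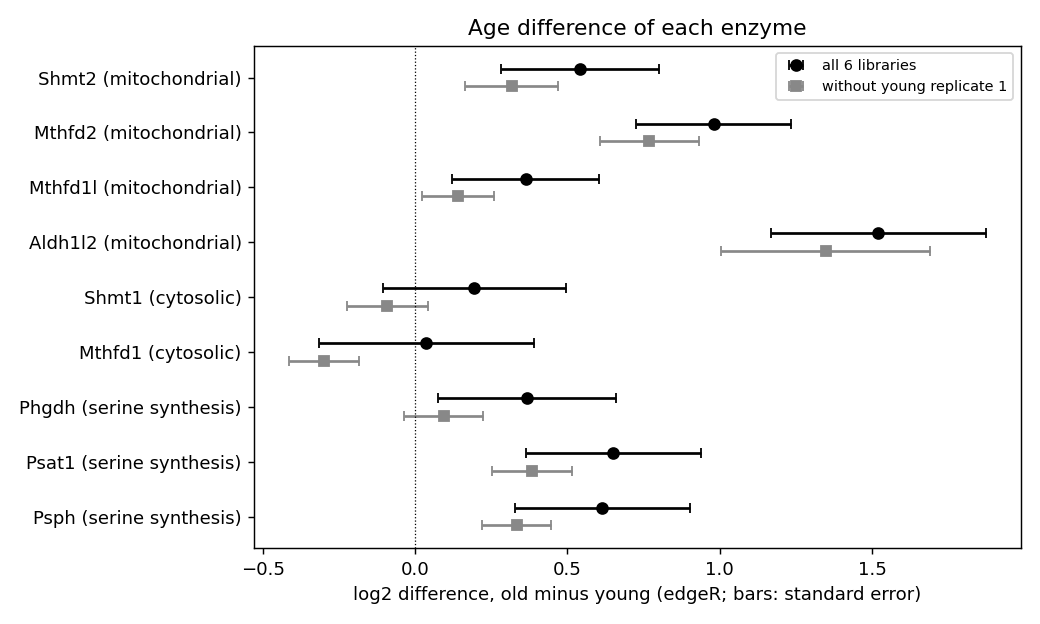
Log2 difference, old minus young, of each enzyme in edgeR with all 6 libraries (black circles) and without young replicate 1 (grey squares); bars are standard errors and the dotted line marks no difference. All 9 values are smaller without young replicate 1, Aldh1l2 and Mthfd2 are the highest in both fits, and Shmt1 and Mthfd1 move to the other side of 0.

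Among the enzymes of serine synthesis, Phgdh (gene 236539, chr3:98313171-98339969), which commits the glycolytic intermediate to serine, stood at 275, 516 and 622 CPM in the young and at 581, 616 and 624 CPM in the old libraries. Young replicate 3 was within the old range. Old minus young, Phgdh differed by 0.37 ± 0.29 (log2, SE, adjusted p = 0.776 in edgeR), and 0.09 ± 0.13 without young replicate 1 (adjusted p = 0.677).

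Psat1 (gene 107272, chr19:15905123-15925059), the transaminase of the second step, stood at 193, 409 and 376 CPM in the young and at 478, 488 and 570 CPM in the old libraries. The groups did not overlap with or without young replicate 1. For Psat1 the log2 difference was 0.65 ± 0.29 (SE, adjusted p = 0.490 in edgeR), and 0.38 ± 0.13 without young replicate 1 (adjusted p = 0.103).

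Psph (gene 100678, chr5:129765558-129787443), the phosphatase that releases serine, stood at 41.1, 89.5 and 86.2 CPM in the young and at 108, 112 and 112 CPM in the old libraries. The old libraries were close together, at 111 ± 2.51 CPM, and above all young ones, at 72.3 ± 27.03 CPM (SD, n = 3 each). The log2 difference was 0.61 ± 0.29 (SE, adjusted p = 0.537 in edgeR), and 0.33 ± 0.11 without young replicate 1 (adjusted p = 0.104). Its counts are divided among 4 listed transcripts, of which the largest held 46.0% of the reads. The span of Psph overlaps that of Cct6a, a chaperonin subunit, and with no strand setting stated, reads of the overlap may have been counted for either gene.

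Mitochondrial and cytosolic enzymes were then compared within each library, which removes what a library does to both alike. The ratio of Mthfd2 to Mthfd1 in FPKM was 2.62, 1.86 and 1.48 in young replicates 1 to 3 and 3.34, 3.12 and 4.01 in old replicates 1 to 3. All old ratios were above all young ones. On the log2 scale of CPM + 0.5 the old libraries were higher by 0.84, with exact permutation p = 0.1 (two-sided, n = 3 per group; 0.3 after adjustment over 3 ratios). That is the smallest p which 3 against 3 libraries can give. Without young replicate 1 the difference was 1.06, with exact permutation p = 0.2, again the smallest possible there.

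The ratio of Shmt2 to Shmt1 was 10.2, 8.83 and 7.66 in the young and 11.2, 9.75 and 11.997 in the old libraries. Young replicate 1 lay within the old range, and the log2 difference was 0.31 (exact permutation p = 0.2, two-sided, n = 3 per group, 0.3 after adjustment). It was 0.41 without young replicate 1, with no overlap. The ratio of Mthfd1l to Mthfd1 was 1.28, 0.861 and 0.808 in the young and 1.12, 1.17 and 1.11 in the old libraries. Here young replicate 1 was the highest of all 6. The log2 difference was 0.23 (exact permutation p = 0.4, two-sided, n = 3 per group, adjusted 0.4), and it was 0.44 without young replicate 1, 0.16 without young replicate 2 and 0.11 without young replicate 3.

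**Figure D3:**
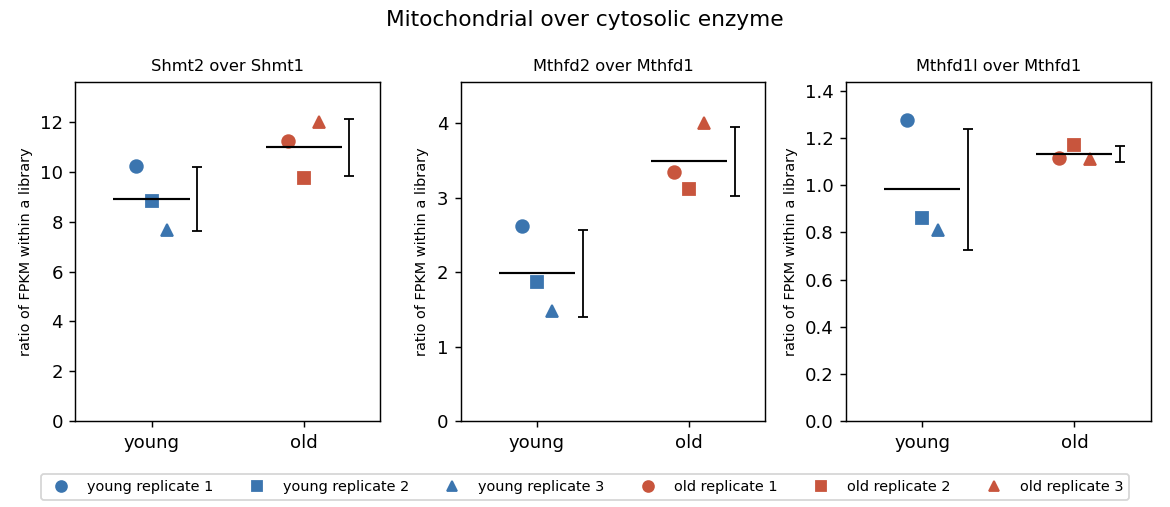
Ratio of the FPKM of a mitochondrial enzyme to that of a cytosolic one within each library (vertical axes start at 0), for 3 young and 3 old libraries. Points are libraries, horizontal lines are means and bars are SD; the groups are apart for Mthfd2 over Mthfd1, and young replicate 1 (blue circle) is the highest young library in all 3 panels.

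Over all 4 mitochondrial and both cytosolic enzymes, the mean log2 difference between old and young libraries was 0.85 and 0.22 respectively, so the mitochondrial class was higher by a further 0.63. These means were 0.61 and -0.20 without young replicate 1, and the gap was 0.81. Leaving out each library in turn, the gap ranged from 0.47 (without young replicate 3) to 0.81. With Aldh1l2 left out of the class, a choice made after seeing the data, the gap was 0.45 with all libraries and 0.60 without young replicate 1. The gap is given as a description with no test. Young replicate 1 was thus low in both classes, but lower in the cytosolic one.

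The windows of 250 bases before an annotated start were compared for the Mthfd2 and Mthfd1 pair, since their ratio separated the ages most clearly. The sequences are those of RefSeq on GRCm38.p6 and run 5′ to 3′ on the gene's strand, and capitals mark CCAAT or its reverse complement ATTGG, the core letters bound by the factor NF-Y. The Mthfd2 window is chr6:83317605-83317854 on the minus strand and the Mthfd1 window is chr12:76254982-76255231 on the plus strand. Both windows lie inside the gene spans given above, so the starts used are not the outer ends of those spans.
Mthfd2: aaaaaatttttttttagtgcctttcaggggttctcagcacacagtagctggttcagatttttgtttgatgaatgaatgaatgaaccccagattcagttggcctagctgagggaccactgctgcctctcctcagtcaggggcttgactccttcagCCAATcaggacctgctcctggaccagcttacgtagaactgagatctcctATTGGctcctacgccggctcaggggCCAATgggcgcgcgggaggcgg
Mthfd1: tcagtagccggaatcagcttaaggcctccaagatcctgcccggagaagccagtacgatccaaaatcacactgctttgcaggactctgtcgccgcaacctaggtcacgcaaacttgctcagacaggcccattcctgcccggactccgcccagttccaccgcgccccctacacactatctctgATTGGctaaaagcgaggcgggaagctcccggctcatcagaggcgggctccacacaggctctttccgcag
Mthfd2 held 3 such matches and Mthfd1 held 1. The 8 enzymes with an entry have 9 windows, since Psat1 has a pair, and 6 of the 9 windows held at least 1 match, where 33.8% of 32851 windows in the table did, and 2.79% of them held 3 or more. This motif was picked after the sequences were read. The letters TGATGNAA, the composite site of Atf4 and C/EBP factors, and CACGTG, the E-box of Myc, were searched on both strands too and had 0 matches in the 9 windows of these 8 enzymes, against 3.45% and 6.02% of all windows. A match in letters is a description, not a binding site.

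Of 65 other genes of the pathway in 7 lists, 54 were tested, and edgeR called 1 of them higher in old libraries and 0 lower, beside 0.742% and 0.133% of all genes. That call was Chac1, a glutathione-degrading enzyme induced by Atf4. Without each of the libraries other than young replicate 1 the count was 0, in the same fits that called at most 0.0856% of all genes. Without young replicate 1, 7 were called higher and 3 lower, beside 5.86% and 2.98% of all genes. The lists were drawn from general knowledge with earlier results of these data known.

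Genes of Atf4 and the amino acid response were the list with the highest median log2 difference, at 0.77 over 11 tested genes, all positive, against 0.54 for the 9 enzymes and -0.03 for all genes tested. For 10 of these 11 the old libraries were above all young ones, a pattern of 9.88% of genes. Chac1 rose from 20.2 ± 4.89 to 63.9 ± 7.34 CPM (SD, n = 3 each), by 1.66 ± 0.22 on the log2 scale (SE, edgeR adjusted p = 0.0262). Trib3, a pseudokinase that restrains Atf4, and Cebpb, a partner of Atf4 on DNA, had differences of 1.08 ± 0.21 and 0.99 ± 0.20 (adjusted p = 0.0764 and 0.0895). Atf4 itself stood at 344, 591 and 584 CPM in young and at 704, 730 and 841 CPM in old libraries. All old libraries were above all young ones, and its difference was 0.58 ± 0.24 (SE, edgeR adjusted p = 0.449), or 0.37 ± 0.13 without young replicate 1 (adjusted p = 0.116). The fit without young replicate 1 called 5 of the 11, all higher, beside 5.86% of all genes. They were Chac1, Trib3, Cebpb, Ddit3 and Sesn2. The last 2 of these, a stress-induced C/EBP factor and an inhibitor of mTORC1, were named after their values were seen.

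Purine synthesis, which consumes the folate-bound carbon, had a median of -0.03 over 6 genes, with groups that overlapped for all 6 and 0 calls in edgeR or DESeq2 (0 at an unadjusted p under 0.05 in edgeR). Young replicate 1 was below both other young libraries for all 6 of them, as for the 9 enzymes. Without it the median was -0.31, and Paics and Adsl, which act in consecutive steps, were called lower in old libraries, at -0.45 ± 0.10 and -0.56 ± 0.14 (SE, edgeR adjusted p = 0.0359 and 0.0449). That fit called 2.98% of all genes lower.

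The folate cycle list had a median of -0.18 over 10 tested of 16 genes, with 0 calls in edgeR (2 at an unadjusted p under 0.05, 0 in DESeq2). Ggh, which trims the glutamate tail of folates, stood at 14.99 ± 2.84 in old and 9.69 ± 1.003 CPM in young libraries (SD, n = 3 each), a difference of 0.63 ± 0.22 (SE, adjusted p = 0.338). In the fit without young replicate 1, Gcsh, a carrier of the glycine cleavage system named after its value was seen, was called lower, at -0.66 ± 0.13 (adjusted p = 0.0259). The close relatives Mthfd2l and Aldh1l1 were below the filter, at 0.54 to 1.2 and 0.03 to 0.24 FPKM. The level of Mthfd2 was at least 56.9 FPKM in every library, far above that of its relative Mthfd2l.

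**Figure D4:**
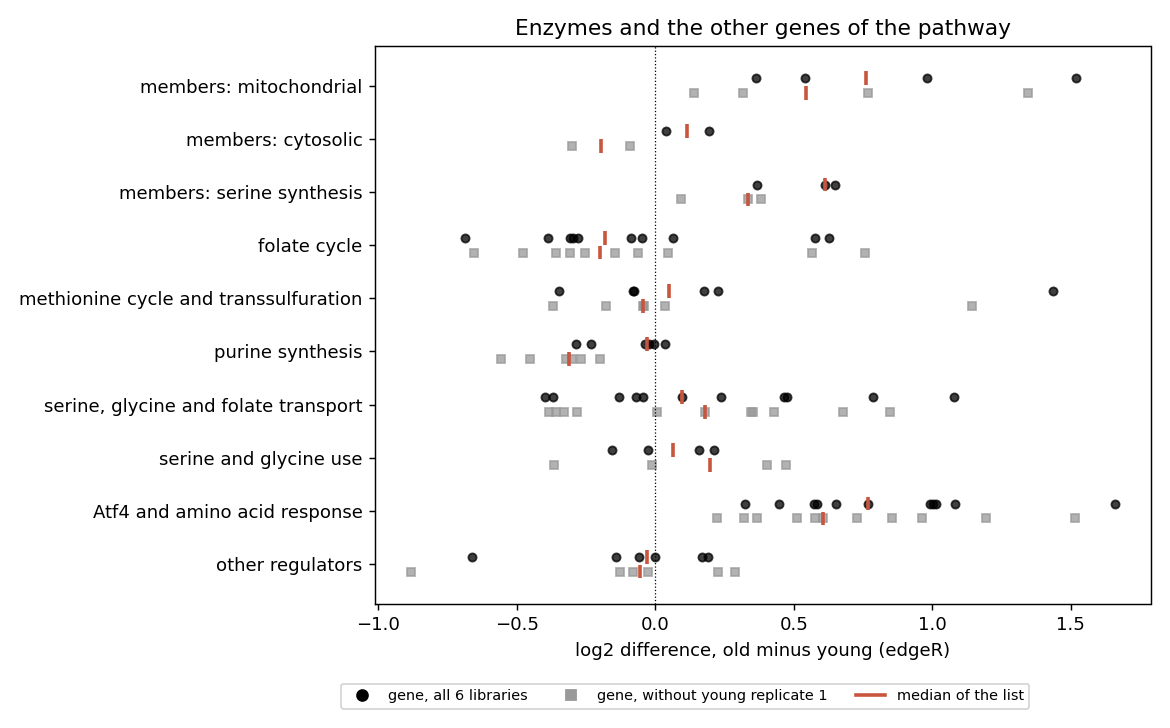
Log2 difference, old minus young, of each enzyme and of each tested gene in 7 other lists, with all 6 libraries (black circles) and without young replicate 1 (grey squares); red ticks are medians. The Atf4 list has all 11 genes above 0 in both fits, while the 6 purine synthesis genes are all below 0 without young replicate 1.

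In the methionine cycle and transsulfuration, the median was 0.05 over 6 tested genes with 0 calls in edgeR (1 at an unadjusted p under 0.05). Cth, which makes cysteine from cystathionine and is also an Atf4 target, stood at 8.28, 22.1 and 14.5 CPM in young and at 28.2, 50.4 and 42.9 CPM in old libraries. Its difference of 1.44 ± 0.38 (SE, edgeR adjusted p = 0.175) became a call without young replicate 1, at 1.15 ± 0.28 (adjusted p = 0.0437), and DESeq2 called it with all libraries. Among 11 genes of serine, glycine and folate transport the median was 0.09 with 0 calls in edgeR (4 at an unadjusted p under 0.05). DESeq2 called 2 higher, beside 3.56% of all genes. These were Slc1a4, a serine and alanine carrier, at 0.78 ± 0.21, and Slc6a9, a glycine carrier, at 1.08 ± 0.30 (edgeR adjusted p = 0.183 and 0.197). The list of serine and glycine use had a median of 0.06 over 4 tested genes and the other regulators one of -0.03 over 6, both with 0 calls in edgeR and in DESeq2 (0 at an unadjusted p under 0.05 in edgeR). Myc, which is known to induce several of the enzymes, stood at 317, 791 and 621 CPM in young and 525, 640 and 776 CPM in old libraries, a difference of 0.17 ± 0.34 (SE, edgeR adjusted p = 0.935) that turned to -0.13 ± 0.19 without young replicate 1 (adjusted p = 0.698).

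Genes with the most similar profile were found by the root mean square distance of log2(CPM + 0.5) over the 6 libraries, after each gene was centred on its own mean. Those nearest to Mthfd2 were Plk3, a polo-like kinase, Junb, an activator protein 1 factor, and Etv6, an ETS repressor, at distances of 0.07, 0.10 and 0.10, where the median gene was at 0.63. Nearest to Shmt1 were Nudcd1, Rrp1b, a nucleolar protein, and Ipo7, a nuclear import receptor, at 0.04, 0.04 and 0.05 (median gene 0.48). Nearest to Aldh1l2 were Eea1, an endosomal tether, Klf9, a Krüppel-like factor, and 4933407O12Rik, at 0.19, 0.25 and 0.25 (median gene 0.83). Junb, for example, ran at 257, 390 and 331 CPM in young and 604, 594 and 752 CPM in old libraries, as Mthfd2 did with all old libraries above all young ones. Ipo7 ran at 98.2, 214 and 223 CPM in young and 180, 237 and 201 CPM in old libraries, with young replicate 1 alone far below the rest, as for Shmt1.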

How the data were processed

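The authors deposited 1 table of 66712 RefSeq transcripts with expected counts and FPKM per library, per the file headers. The submitters' processing notes name Bowtie, RSEM and GRCm38 (mm10), with versions, annotation release and strand setting not given in the sources used here. Both units were summed per Entrez gene, and 19830 of 19977 genes matched the RefSeq table of GRCm38. Summed expected counts were rounded and tested with edgeR 4.0.16 in R 4.3.3 (quasi-likelihood, TMM factors, no block) over genes with a mean of at least 1 FPKM, with calls below 0.05 after Benjamini-Hochberg adjustment. The SE was taken from the log2 difference and the root of its F statistic. DESeq2 1.42.0 and limma 3.58.1 were alternatives, with other filters, scalings and left-out libraries. Methods were tested on simulated data in which no library stood apart, so that test does not cover a library such as young replicate 1. Named pathway genes are up to 3 per list with the smallest p, any called gene, and Mthfd2l, Aldh1l1, Atf4 and Myc; 1 gene is not reported here. The members and lists were chosen with earlier results of these data known. Figures were drawn with matplotlib 3.10.9.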

Additional observations from a re-analysis of the deposited data

How the results depend on the processing

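The count of genes called was 92 with all libraries, 501 in DESeq2, 203 with no filter, 55 with a mean of at least 5 FPKM, and 0 to 929 when each library was left out. The count among the 9 enzymes was 0, with 2 in DESeq2 and 0 to 2 when each library was left out. Among the other pathway genes it was 1, with 8 in DESeq2, 2 with no filter, and 0 to 10 when each library was left out. The titles do not say that replicate numbers pair the samples. Same-numbered deviations correlated at 0.23, -0.02 and 0.20 and other-numbered ones at -0.34 to 0.35, which does not decide it. With the replicate number as a block, 119 genes, 0 enzymes and 2 other pathway genes were called. With each library left out, Shmt1 ranged from -0.091 to 0.38 and Mthfd1 from -0.30 to 0.26 on the log2 scale; Shmt1 was negative without young replicate 1, and Mthfd1 without it or without old replicate 2 (-0.0015). The other 7 enzymes stayed positive in every setting run; Aldh1l2 ranged from 0.82 (limma on log2(FPKM + 1)) to 1.81 and could not be tested with a mean of at least 5 FPKM. The gap between mitochondrial and cytosolic enzymes was 0.62 on log2(FPKM + 0.1), 0.63 with library totals only, and 0.45 without Aldh1l2, an alternative chosen after seeing the data. Causes were not tested. The lowest Aldh1l2 library rests on 55 counts.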

Other observations

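Some genes next to the enzymes ran opposite to them in young replicate 1, and they were picked after their values were seen. Sfxn3, a sideroflexin of the inner mitochondrial membrane, stood at 146 CPM there against 51.4 to 85.2 CPM in the other 5 libraries, while its relative Sfxn1, the mitochondrial serine carrier, stood at 76.9 CPM there against 108 to 146 CPM. Nfe2l2, a transcription factor of the antioxidant response, stood at 105 CPM there against 47.9 to 74.4 CPM. Tyms, the thymidylate synthase that uses the folate-bound carbon, was also highest there, at 105 CPM against 47.9 to 87.3 CPM. The 3 genes Sfxn3, Nfe2l2 and Tyms were not called between old and young libraries in edgeR (adjusted p = 0.830, 0.947 and 0.836). Gldc, the glycine decarboxylase, was below the filter and stood at 0.231 to 0.347 CPM in young and 0.546 to 1.69 CPM in old libraries.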
